A study of Mus musculus with 2 samples.

Results

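The germ cell niche of the fetal testis was described here by 3 ligand genes, *Kitl*, *Gdnf* and *Cxcl12*, and 4 receptor genes, *Kit*, *Gfra1*, *Ret* and *Cxcr4*. They were taken by symbol from the deposited gene table, in which these 7 were found among 32285 genes. Whole testes of mouse embryos at E14.5 that carried *Nr5a1-cre* and *Rosa-tdTomato* (offspring of homozygous *Nr5a1-cre* and homozygous *Rosa-tdTomato* parents) had been snap-frozen in liquid nitrogen, and their nuclei were profiled by 10x multiome, which reads RNA and open chromatin (ATAC) from 1 nucleus. All nuclei share this genotype and stage, *Nr5a1-cre* is active in steroidogenic and supporting lineages of the gonad, and no untreated or wild-type group was analysed here. Each assay has 1 library, so no comparison has a replicate check, no p-value is given, and every interval below is an exact 95% interval that covers counting error only.

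KIT ligand (KITL) is made by somatic cells and binds the receptor tyrosine kinase KIT, which migrating and early gonadal germ cells, melanocytes, mast cells and blood precursors are known to use. Glial cell line-derived neurotrophic factor (GDNF) comes from Sertoli cells and signals through the co-receptor GFRA1, which is anchored on the cell surface, and the tyrosine kinase RET; the postnatal testis relies on it to maintain spermatogonial stem cells. The chemokine CXCL12 is made by stromal cells and attracts germ cells and blood vessel cells that carry CXCR4.

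The deposited matrix held 9833 barcodes, shared by both libraries, with 122049390 RNA molecules (UMIs). Quality thresholds left 7668 nuclei and removal of 470 doublet-like nuclei left 7198, with a median of 7952 UMIs and 4475 fragments. Clusters were named from marker genes, with the RNA of the 7 genes and of the pathway lists below, and the peaks around the 7 genes, held out of the clustering. The classes were 979 germ-like, 840 Sertoli-like, 793 Leydig-like, 3279 interstitial progenitor-like, 556 surface epithelium-like, 390 mesonephric mesenchyme-like, 67 pericyte-like, 97 endothelial-like, 65 immune-like and 45 erythroid-like nuclei. A further cluster of 87 nuclei led by *Pax8* and *Aldh1a3* stayed unnamed, since its markers did not settle on 1 class. Scrublet's automatic threshold marked 923 of the kept nuclei as possible doublets, and 234 of them were germ-like and held 45.7% of the germ-like UMIs. The share was highest in endothelial-like nuclei, where 37 such nuclei held 78.9% of the UMIs, and from 11.4% (progenitor-like) to 46.9% (immune-like) in the other classes. When all nuclei over the threshold were removed before clustering, the matching *Pax8*-led cluster of 67 nuclei took the name supporting-like. Levels are UMIs of the gene per 1000000 UMIs of the class (CPM), and a level of the 7 genes named below is given with and without those nuclei where they moved it by over 1.5 times. Doublet scores were computed with the RNA of the 7 genes left in, so levels without nuclei over the threshold are not an independent check. In pooled nuclei, fewer expressing nuclei and less RNA per nucleus cannot be told apart from a CPM alone.

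Peaks of open chromatin at *Kit*, *Gdnf*, *Cxcl12* and *Cxcr4* differed between classes, and the central 300 bases of 5 of them are shown first because the chromatin results below turn on them. The *Cxcr4* one is also counted among the promoter peaks of that gene. All are on the plus strand of GRCm38. Each was searched on both strands for 3 motifs, and capitals mark a match. The NR5A1 motif CAAGGTCA was present in 6.18% of the same-length centres of the 109183 peaks searched. The SOX core AACAAT was present in 11.5% of those centres. The motif of GATA factors is AGATAA, present in 17.3%.
*Kit* intronic peak, Leydig-like nuclei: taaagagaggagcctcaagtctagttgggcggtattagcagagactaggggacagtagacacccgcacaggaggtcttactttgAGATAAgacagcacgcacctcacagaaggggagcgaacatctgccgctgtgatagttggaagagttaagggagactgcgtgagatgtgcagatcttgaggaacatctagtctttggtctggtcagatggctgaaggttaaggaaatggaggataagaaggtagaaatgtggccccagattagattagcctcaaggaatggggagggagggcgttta
*Kit* upstream peak, Leydig-like nuclei: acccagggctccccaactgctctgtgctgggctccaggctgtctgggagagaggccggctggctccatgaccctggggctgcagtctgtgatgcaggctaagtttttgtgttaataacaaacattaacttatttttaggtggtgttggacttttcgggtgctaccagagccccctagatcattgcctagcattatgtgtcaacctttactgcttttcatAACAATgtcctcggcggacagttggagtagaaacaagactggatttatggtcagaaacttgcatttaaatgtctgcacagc
*Gdnf* downstream peak, Sertoli-like nuclei: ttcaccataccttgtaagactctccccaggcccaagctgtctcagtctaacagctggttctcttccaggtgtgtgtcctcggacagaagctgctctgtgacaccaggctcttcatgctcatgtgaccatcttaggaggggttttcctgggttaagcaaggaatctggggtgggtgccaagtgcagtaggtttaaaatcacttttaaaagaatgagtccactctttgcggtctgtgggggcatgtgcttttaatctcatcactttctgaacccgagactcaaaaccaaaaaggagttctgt
*Cxcl12* upstream peak, progenitor-like nuclei: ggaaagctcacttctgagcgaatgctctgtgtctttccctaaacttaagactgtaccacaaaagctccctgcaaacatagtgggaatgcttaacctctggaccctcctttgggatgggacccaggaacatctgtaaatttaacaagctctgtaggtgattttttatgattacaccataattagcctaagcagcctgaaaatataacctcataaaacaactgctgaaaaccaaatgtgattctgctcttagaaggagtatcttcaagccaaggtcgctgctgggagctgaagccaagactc
*Cxcr4* upstream peak, germ-like nuclei: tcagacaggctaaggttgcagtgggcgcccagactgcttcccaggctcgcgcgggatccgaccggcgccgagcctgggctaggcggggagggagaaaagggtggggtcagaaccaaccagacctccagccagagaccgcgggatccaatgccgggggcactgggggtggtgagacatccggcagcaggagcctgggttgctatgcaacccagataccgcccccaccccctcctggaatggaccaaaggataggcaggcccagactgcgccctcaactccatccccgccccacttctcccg
The intronic *Kit* stretch is chr5:75579886-75580185 and the *Kit* stretch upstream of the gene is chr5:75559443-75559742. The *Gdnf* stretch is chr15:7838473-7838772, past the end of the gene. The *Cxcl12* stretch is chr6:117118393-117118692 and the *Cxcr4* stretch is chr1:128593237-128593536. The intronic *Kit* stretch held 1 AGATAA and the upstream one held 1 AACAAT. The stretches near *Gdnf*, *Cxcl12* and *Cxcr4* held none of the 3 motifs, which says only that these letters are not in these windows.

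Among the ligands, *Kitl* (ENSMUSG00000019966, chr10:100015630-100100416, GRCm38) was highest in Sertoli-like nuclei, the cells that enclose the germ cells in the cords. There it reached 767 CPM (750 to 784), from 7888 UMIs in 840 nuclei. This was 7.44-fold (7.20 to 7.68) the 103 CPM of all other nuclei together, and 11.6-fold without nuclei over the automatic threshold. The RNA was spread over the whole class, since 97.7% of Sertoli-like nuclei had a UMI and the 1 nucleus with most held 0.799% of them. Endothelial-like nuclei followed at 306 CPM and the *Pax8*-led cluster at 269 CPM, and these did not differ beyond counting error (ratio 1.14, 0.993 to 1.31). Without nuclei over the automatic threshold they were at 414 CPM (359 to 475) and 260 CPM (222 to 303), and these intervals did not overlap. Over all kept nuclei, Leydig-like nuclei were next at 148 CPM. The remaining 7 classes lay between 43.7 CPM in pericyte-like and 96.3 CPM in immune-like nuclei, and the latter was 59.1 CPM (15 UMIs) and erythroid-like nuclei moved from 61.3 to 24.6 CPM (6 UMIs) without nuclei over the automatic threshold.

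Of the germ-like *Kitl* UMIs, 92.5% were in nuclei over the automatic threshold. The germ-like level was 87.4 CPM over all germ-like nuclei and 12.0 CPM (10.1 to 14.3) without those over the automatic threshold, while the Sertoli-like value moved from 767 to 904 CPM. The Sertoli-like level was thus 8.77-fold the germ-like one with these nuclei and 75.2-fold (63.34 to 89.99) without them. After each nucleus was thinned to 2000 UMIs, 71.7% of Sertoli-like nuclei (68.5 to 74.7%) had a *Kitl* UMI against 6.35% of germ-like nuclei. Before thinning the shares were 97.7% and 26.9%, at median depths of 9914.5 and 15521 UMIs.

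*Gdnf* (ENSMUSG00000022144, chr15:7810846-7837575) had the same leading class at a lower level. Sertoli-like nuclei held 130 CPM (123 to 137) from 1332 UMIs, which was 9.14-fold (8.40 to 9.94) all other nuclei at 14.2 CPM. The *Pax8*-led cluster was second at 51.5 CPM (38.9 to 66.9), Leydig-like nuclei followed at 23.7 CPM (20.7 to 27.2), and each of these steps exceeded counting error. From endothelial-like (15.6 CPM) to progenitor-like nuclei (14.6 CPM) the neighbours in the order did not differ beyond counting error. Of 36 endothelial-like UMIs none remained without nuclei over the automatic threshold. Surface epithelium-like nuclei came last at 3.76 CPM, within counting error of mesonephric mesenchyme-like nuclei (ratio 1.51, 0.745 to 3.04), and were at 2.06 CPM (0.943 to 3.91) without nuclei over that threshold.

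Without the nuclei over the automatic threshold, *Gdnf* was 154 CPM in Sertoli-like and 1.45 CPM (0.827 to 2.35) in germ-like nuclei, against 11.6 CPM in all germ-like nuclei. After thinning, 24.0% of Sertoli-like nuclei (21.2 to 27.1%) had a *Gdnf* UMI and 1.84% of germ-like nuclei did. The unthinned shares were 63.6% and 10.3%. Both Sertoli-like clusters found at a finer resolution carried it, at 133 CPM in 572 nuclei and 125 CPM in 268 nuclei, whereas *Kitl* was at 885 CPM in the first and 631 CPM in the second. Of the second cluster 35.8% of nuclei were over the automatic threshold, against 6.64% of the first, and its 7 progenitor markers summed to 702 CPM against 230 CPM. Without those nuclei *Kitl* was 932 and 845 CPM (ratio 1.10, 1.04 to 1.16) and *Gdnf* 139 and 185 CPM (0.752, 0.664 to 0.852). *Kitl* and *Gdnf* were seen in the same thinned nucleus in 18.9% of 837 Sertoli-like nuclei (16.3 to 21.7%), beside 17.2% from the product of their shares. *Gdnf* was seen in 26.3% of the thinned nuclei with a *Kitl* UMI and in 18.1% of those without.

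*Cxcl12* (ENSMUSG00000061353, chr6:117168535-117181367) followed the mesenchyme instead. It was 287 CPM (280 to 294) in progenitor-like nuclei, from 6857 UMIs, and 3.85-fold (3.70 to 4.01) higher there than in all other nuclei together. Mesonephric mesenchyme-like nuclei were second at 160 CPM and then came pericyte-like nuclei at 125 CPM. Neighbours from pericyte-like over surface epithelium-like (109 CPM) and endothelial-like (102 CPM) to Leydig-like nuclei (92.4 CPM) did not differ beyond counting error from one to the next. Sertoli-like nuclei came last at 46.7 CPM, within counting error of erythroid-like nuclei (ratio 1.16, 0.717 to 1.77). A *Cxcl12* UMI was found in 40.7% of thinned progenitor-like nuclei (39.0 to 42.4%) and 7.53% of thinned Sertoli-like nuclei, against 72.4% and 27.98% before thinning at median depths of 6350 and 9914.5 UMIs.

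Without the nuclei over the automatic threshold, *Cxcl12* stayed at 291 CPM in progenitor-like nuclei, while it was 24.6 CPM in Sertoli-like, 21.6 CPM in germ-like and 38.9 CPM in endothelial-like nuclei. The 2 clusters of the finer resolution that kept the progenitor name held 359 CPM in 1505 nuclei and 264 CPM in 758 nuclei, the second led by genes of dividing cells. Another cluster, which held 1060 of the 3279 progenitor-like nuclei, was led by genes that include *Myh11* and *Myocd* of smooth muscle and had 206 CPM (195 to 217). Its 6 contractile markers summed to 533 CPM, beside 183 and 275 CPM in the other clusters, and its 7 progenitor markers to 2445 CPM, beside 2673 and 2381 CPM. Across all progenitor-like nuclei, the upper part by share of 97 cell cycle genes held 0.815 times (0.777 to 0.855) the *Cxcl12* level of the lower part.

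Over the 19403 genes with at least 20 UMIs, 8.54% were at least 2-fold higher in Sertoli-like nuclei than in all others and 6.54% in progenitor-like nuclei. *Kitl* and *Gdnf* were 2 of the 7 genes past that fold in Sertoli-like nuclei, and *Cxcl12* was the 1 gene past it in progenitor-like nuclei.

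**Figure D1:**
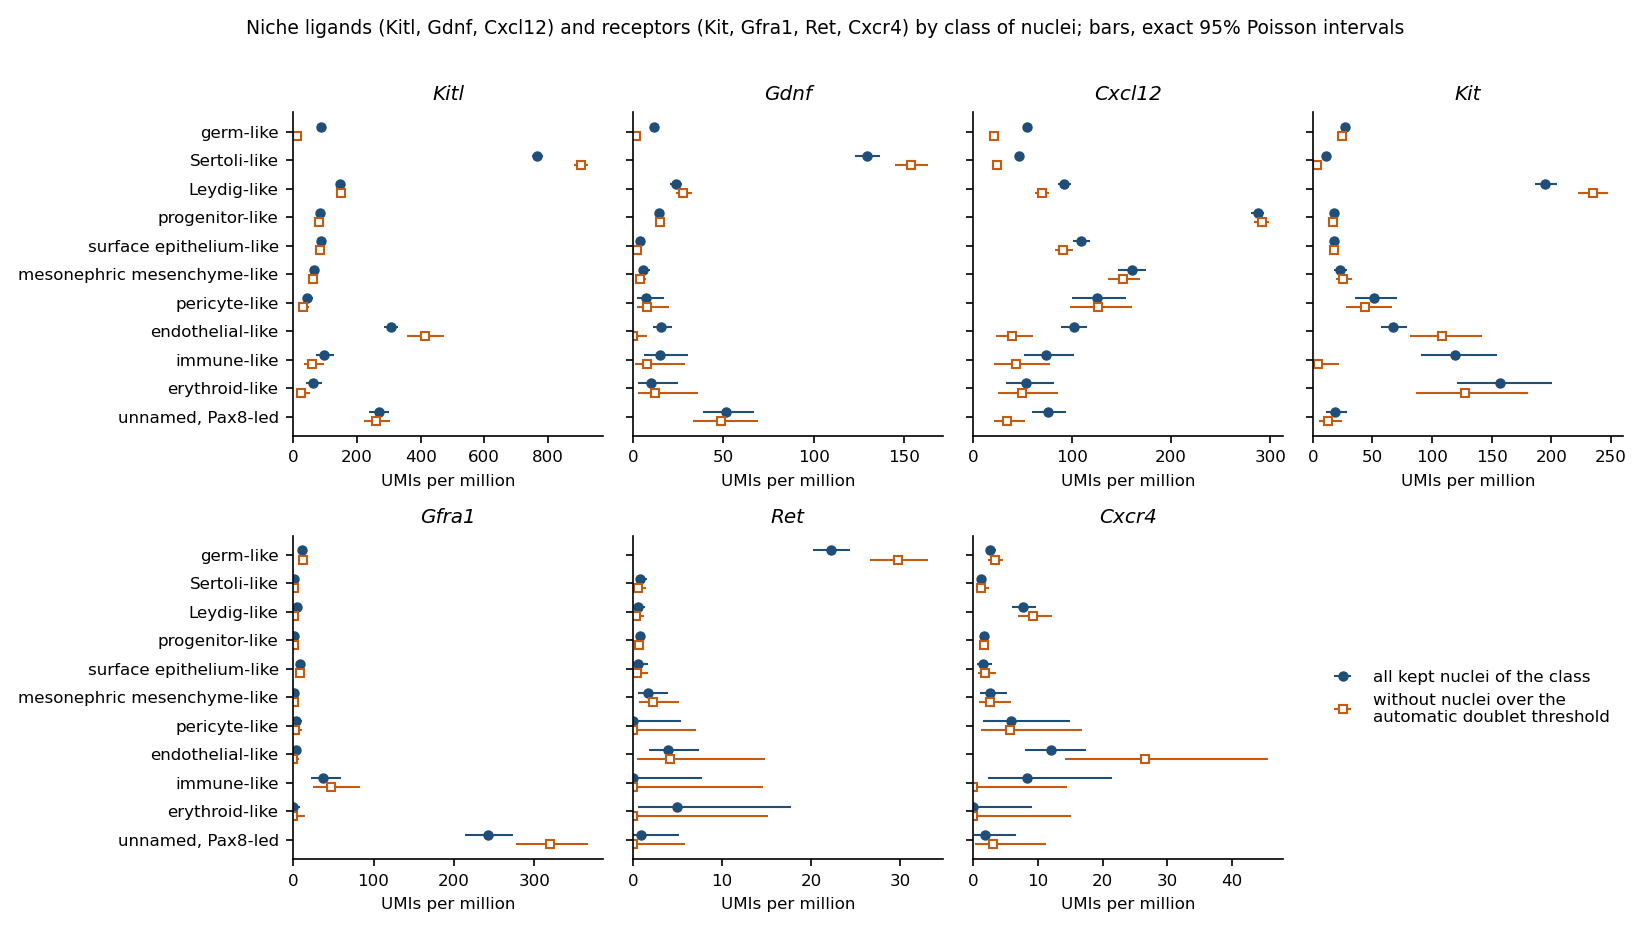
Levels of the 3 ligand and 4 receptor genes in CPM (x axes, linear, 1 scale per gene) in the 11 classes of nuclei; filled circles are all kept nuclei, open squares leave out nuclei over the automatic doublet threshold, and bars are exact 95% Poisson intervals. *Kitl* and *Gdnf* peak in Sertoli-like nuclei (767 and 130 CPM), *Cxcl12* in progenitor-like (287 CPM), *Kit* in Leydig-like (195 CPM), *Gfra1* in the *Pax8*-led cluster (242 CPM) and *Ret* in germ-like nuclei (22.2 CPM).

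Of the 4 receptor genes, 3 were highest outside the germ-like nuclei. *Kit* (ENSMUSG00000005672, chr5:75574916-75656722) was one of them. Leydig-like nuclei, the steroid-making cells of the interstitium, held 195 CPM (186 to 204) from 1741 UMIs, which was 8.32-fold (7.77 to 8.91) all other nuclei and 12.5-fold without nuclei over the automatic threshold. Germ-like nuclei were at 27.2 CPM (24.996 to 29.6), below 5 of the other classes, and the Leydig-like level was 7.16-fold (6.51 to 7.90) theirs. Erythroid-like nuclei, a blood lineage in which KIT has a known part, were second at 157 CPM (121 to 200). The ratio of Leydig-like to erythroid-like nuclei (1.24, 0.968 to 1.62) was within counting error. Without nuclei over the automatic threshold they were at 235 CPM (222 to 247) and 127 CPM (86.5 to 181, from 31 UMIs). These intervals did not overlap. Over all kept nuclei, endothelial-like nuclei held 67.4 CPM and pericyte-like nuclei 51.0 CPM. The 5 other somatic classes with 11.4 to 22.4 CPM ended with Sertoli-like nuclei as the lowest.

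The immune-like value of *Kit*, 119 CPM, came from 57 UMIs in 11 nuclei, of which 33 were in 1 nucleus, and 1 UMI (3.94 CPM, 0.0998 to 21.97) remained without nuclei over the automatic threshold. With those nuclei left out, Leydig-like nuclei were at 235 CPM, endothelial-like nuclei at 109 CPM, germ-like nuclei were at 24.6 CPM and Sertoli-like nuclei at 3.56 CPM. The germ-like level was therefore 2.39-fold the Sertoli-like one with all nuclei and 6.92-fold (4.59 to 10.9) without them. After thinning, a *Kit* UMI was seen in 31.6% of Leydig-like (28.4 to 35.0%), 5.22% of germ-like (3.91 to 6.81%) and 1.55% of Sertoli-like nuclei (0.830 to 2.64%). The unthinned shares were 60.0%, 26.8% and 7.38%, at median depths of 9648, 15521 and 9914.5 UMIs.

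*Gfra1* (ENSMUSG00000025089, chr19:58235604-58455909), the GDNF co-receptor, was highest in the *Pax8*-led cluster. It held 242 CPM (214 to 273) there, from 263 UMIs, and 63.2% of its 87 nuclei had a UMI. Germ-like nuclei were at 11.1 CPM (9.66 to 12.6) from 225 UMIs, so the *Pax8*-led level was 21.9-fold (18.3 to 26.3) the germ-like one. Surface epithelium-like nuclei were at 9.03 CPM, which did not differ from germ-like nuclei beyond counting error (ratio of germ-like to surface epithelium-like 1.22, 0.893 to 1.71). The germ-like level was 18.9-fold (8.57 to 52.2) that of Sertoli-like nuclei at 0.583 CPM and 29.3-fold that of progenitor-like nuclei at 0.377 CPM.

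Values of *Gfra1* in 2 classes rested on very few nuclei. The 37.7 CPM of immune-like nuclei were 18 UMIs in 3 nuclei. Of the 41 UMIs in Leydig-like nuclei (4.59 CPM), 34 were in 1 nucleus, and the class was at 1.03 CPM without nuclei over the automatic threshold. Erythroid-like nuclei had no *Gfra1* UMI in 407911, which allows a level of up to 9.04 CPM. After thinning, 34.5% of the *Pax8*-led nuclei (24.6 to 45.4%), 1.84% of germ-like (1.10 to 2.90%) and 0.119% of Sertoli-like nuclei had a *Gfra1* UMI, and the unthinned shares were 63.2%, 13.3% and 0.476%.

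*Ret* (ENSMUSG00000030110, chr6:118151745-118197718), the kinase that signals for GFRA1, was the 1 receptor gene with germ-like nuclei on top. It was 22.2 CPM (20.2 to 24.3) there, from 452 of the 504 *Ret* UMIs of all kept nuclei, and 24.1-fold (18.0 to 32.7) all other nuclei at 0.923 CPM. This ratio was 14.4 with clusters from chromatin alone and 42.4 without nuclei over the automatic threshold. No other class passed 4.90 CPM, the value of erythroid-like nuclei with 2 UMIs (0.594 to 17.7). Without those nuclei germ-like nuclei held 29.7 CPM, and no *Ret* UMI remained in erythroid-like nuclei or in the *Pax8*-led cluster. Of germ-like nuclei 29.1% had a *Ret* UMI (26.3 to 32.1%) and of Sertoli-like nuclei 0.714%. After thinning the shares were 5.73% and 0%, the latter 0 of 837 nuclei, which allows a share of up to 0.440%.

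The classes of both GDNF receptor genes thus overlapped in germ-like nuclei but differed outside them. In the *Pax8*-led cluster, with 263 *Gfra1* UMIs, 1 *Ret* UMI was counted (0.920 CPM, 0.0233 to 5.13). Within 977 thinned germ-like nuclei, *Gfra1* and *Ret* were seen together in 1 nucleus, which is 0.102% (0.00259 to 0.569%) beside 0.106% from the product of their shares. *Kit* and *Ret* were seen together in 3 nuclei and *Kit* and *Gfra1* in 1, beside product shares of 0.299% and 0.0962%. The 51 *Kit*, 18 *Gfra1* and 56 *Ret* nuclei left after thinning are too few to show joint or separate use by single nuclei.

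*Cxcr4* (ENSMUSG00000045382, chr1:128588199-128592293), the CXCL12 receptor, was the sparsest of the 7 genes with 230 UMIs in all kept nuclei. Endothelial-like nuclei held 12.1 CPM (8.04 to 17.5) from 28 UMIs and Leydig-like nuclei 7.73 CPM (6.01 to 9.78) from 69 UMIs. Germ-like nuclei were at 2.70 CPM (2.04 to 3.52) from 55 UMIs. The endothelial-like level was 4.48-fold (2.74 to 7.19) and the Leydig-like level 2.86-fold (1.98 to 4.15) the germ-like one, and germ-like nuclei were 2.32-fold (1.23 to 4.75) Sertoli-like nuclei. Germ-like nuclei were 1.61-fold (1.05 to 2.49) progenitor-like nuclei and within counting error of mesonephric mesenchyme-like nuclei at 2.68 CPM (ratio 1.01, 0.478 to 2.45). Without nuclei over the automatic threshold, the endothelial-like level was 26.6 CPM (14.2 to 45.5) from 13 UMIs. Of the endothelial-like UMIs, 25 were in a cluster of 31 nuclei led by *Gja5*, which marks arterial endothelium (21.02 CPM), and 3 in the other cluster of 66 nuclei (2.67 CPM). Of these clusters 38.7% and 37.9% of nuclei were over the automatic threshold, and without them the *Gja5*-led cluster held all 13 UMIs in 19 nuclei (84.4 CPM, 44.9 to 144).

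Shares of nuclei with a *Cxcr4* UMI were small everywhere. They were 14.4% of endothelial-like, 7.82% of Leydig-like, 5.11% of germ-like and 1.43% of Sertoli-like nuclei, and after thinning 3.12%, 1.77%, 0.819% and 0.358%. The thinned intervals of germ-like (0.354 to 1.61%) and Sertoli-like nuclei (0.0740 to 1.04%) overlapped, so a germ-like share above the Sertoli-like one was not detectable at that depth. The background of free RNA was not measured. Immune-like nuclei had 4 *Cxcr4* UMIs, none of them in nuclei under the automatic threshold, and erythroid-like nuclei had none.

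Counted against the 19403 genes, 20.2% were at least 2-fold higher in germ-like nuclei than in all others, and of the 7 genes *Ret* alone was. In Leydig-like nuclei 8.25% of genes passed that fold, among them *Kit* and *Cxcr4*, and in endothelial-like nuclei 6.76%, with *Cxcr4*. In immune-like nuclei 15.1% passed, with *Kit*, *Gfra1* and *Cxcr4* on the few nuclei given above. In erythroid-like nuclei 14.9% passed, with *Kit*, and in the *Pax8*-led cluster 10.1%, with *Gfra1*. *Gfra1* in germ-like nuclei stayed under the fold at 1.57 (1.33 to 1.85). The other nuclei in that ratio include the *Pax8*-led cluster, which held 263 of the 622 *Gfra1* UMIs of all kept nuclei.

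Germ-like nuclei fell into 2 clusters at the finer resolution. Of the receptor genes *Kit* and *Ret* differed between them, as did a large part of all genes (shares below). One cluster, of 602 nuclei, was led by *Lhx1*, with *Eya2* and *Prdm1*, and the other, of 377 nuclei, by *St18*, *Grm5* and *Spocd1*. *Kit* was 34.2 CPM in the *Lhx1*-led and 16.3 CPM in the *St18*-led cluster, a ratio of 2.10 (1.72 to 2.58). Without nuclei over the automatic threshold the values were 38.8 and 4.38 CPM, a ratio of 8.85 (5.61 to 14.7), beside 3.56 CPM in Sertoli-like nuclei. A *Kit* UMI was present in 32.5% of 471 nuclei (28.3 to 36.9%) against 6.57% of 274 (3.94 to 10.2%), although the second cluster was deeper, with a median of 15706.5 against 12904 UMIs.

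*Ret* differed less. It was 27.8 CPM in the *Lhx1*-led and 13.5 CPM in the *St18*-led cluster, a ratio of 2.06 (1.65 to 2.58) and of 2.46 (1.89 to 3.24) without nuclei over the threshold. *Gfra1* was 11.3 and 10.7 CPM (1.05, 0.797 to 1.39), and *Cxcr4* was 3.14 and 2.02 CPM (1.56, 0.850 to 2.98). For neither of these did the interval leave out 1. The *Kitl* and *Gdnf* ratios between these clusters, 2.83 and 2.96 in all nuclei, were 1.03 and 1.55 without nuclei over the threshold, with both intervals then including 1.

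For genes known to respond to GDNF in spermatogonial cultures, only the RNA was held out of the clustering, while peaks near them were left in. Without nuclei over the threshold, 6 of 8 (7 with at least 20 UMIs) had intervals above 1 for the *Lhx1*-led over the *St18*-led cluster. This stood against 25.9% of 14039 genes with at least 20 UMIs there. None of the 8 had an interval below 1, against 23.6%. *Kit* and *Ret* were the 2 of the 7 genes (6 with at least 20 UMIs) with an interval above 1, and none had one below 1. Both sets are small, and their counts were not tested against the shares of all genes. *Lhx1* itself is the gene that leads the cluster. The ratio was 16.3 (7.71 to 41.1) for the ETS factor *Etv4*, 5.12 (4.29 to 6.15) for *Etv5* and 6.93 (5.40 to 9.03) for the LIM factor *Lhx1*. It was 4.01 for *Dusp6* and 3.12 for *Spry2*, both of which restrain ERK signalling, and 9.83 (2.48 to 85.2) for *Spry4* with 2 UMIs in the *St18*-led cluster. The intervals of *Id4* (0.847, 0.524 to 1.38) and *Bcl6b* (0.301, 0.0502 to 1.32) included 1. The genes of this list also respond to other growth factors, and whether any signal acted was not tested. Of the other pathway lists given below, 3 of 10 KIT signalling genes with at least 20 UMIs had intervals above 1 and 3 below. For the CXCL12 axis 1 of 6 lay above and 2 below. For other niche factors 0 of 5 lay above and 2 below, and for the GDNF family 0 of 4 on either side.

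*Spocd1*, one of the leading genes of the *St18*-led cluster, and *Piwil4*, both with parts in piRNA-directed silencing in prospermatogonia, were named after their values were seen. *Spocd1* was 80.4 CPM in the *St18*-led and 4.002 CPM in the *Lhx1*-led cluster without nuclei over the threshold, and *Piwil4* was 205 and 68.0 CPM. The proliferation gene *Mki67* was 251 CPM in the *Lhx1*-led and 56.5 CPM in the *St18*-led cluster, and 97 cell cycle genes summed were 1.41-fold higher in the former. The 7 progenitor markers, all of them detected, summed to 117 CPM in the *Lhx1*-led and 160 CPM in the *St18*-led cluster, and 508 and 376 CPM before those nuclei were left out. The 5 markers of Leydig-like nuclei, the class with most *Kit*, summed to 202 and 150 CPM, and to 314 and 282 CPM before. The part of either in the receptor differences was not tested. Nor was that of the cell cycle. Split by the share of cell cycle genes alone, the upper part of all germ-like nuclei held 1.57-fold (1.32 to 1.87) the *Kit* level of the lower part, with 1.02 (0.846 to 1.23) for *Ret* and 0.804 (0.612 to 1.05) for *Gfra1*.

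**Figure D2:**
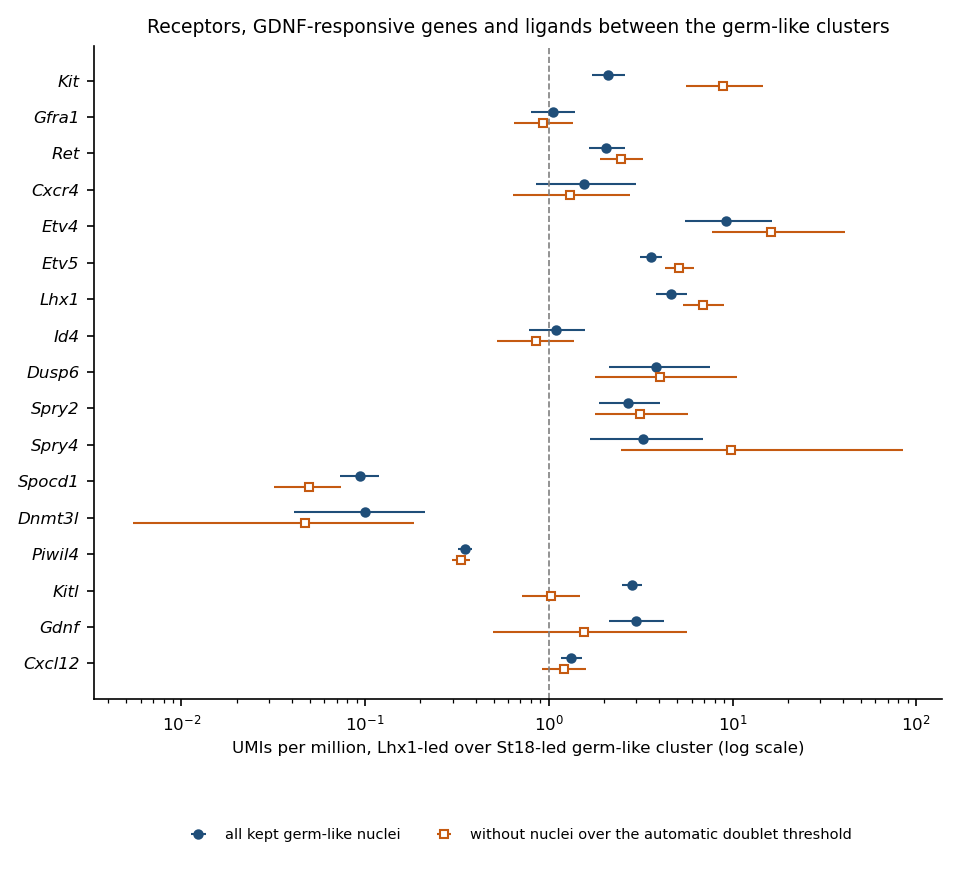
Ratio of CPM in the *Lhx1*-led over the *St18*-led germ-like cluster (x axis, log scale; dashed line, equal levels) for receptors, GDNF-responsive genes, 3 prospermatogonial genes and the ligands; filled circles are all kept germ-like nuclei, open squares leave out nuclei over the automatic doublet threshold, and bars are exact 95% intervals. *Kit* moves from 2.10 to 8.85 and *Kitl* from 2.83 to 1.03 when those nuclei are left out, while *Gfra1* stays near 1 (1.05 and 0.932).

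Open chromatin at the gene starts was read as unique fragments at promoter peaks, those within 1 kb of the start, per 1000000 fragments at peaks of the class (FPM). *Ret* had 30.9 FPM in germ-like nuclei (76 fragments) against 10.6 in all others (126 fragments), a ratio of 2.90 (2.15 to 3.89). *Cxcl12* had 28.01 in progenitor-like nuclei against 14.3 in the others, a ratio of 1.96 (1.54 to 2.51), and 2.61 without nuclei over the automatic doublet threshold. For both genes RNA was also highest in the same class.

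The *Kitl* promoter did not follow its RNA. It had 28.02 FPM in Sertoli-like nuclei and 26.5 in all others (1.06, 0.757 to 1.45), beside an RNA ratio of 7.44. For *Kit* the promoter ratio was 1.29 (0.936 to 1.75) in Leydig-like nuclei, where RNA was 8.32-fold higher, and 1.32 (1.05 to 1.66) in germ-like nuclei, where the RNA ratio was 0.553. The Leydig-like interval left out 1 with the deposited cut counts (1.31, 1.05 to 1.64) and with fragments cut within 500 bases of the start (1.49, 1.03 to 2.09), and the germ-like one included it without nuclei over the automatic threshold (1.29, 0.934 to 1.75). *Cxcr4* had a promoter ratio of 1.87 (1.53 to 2.26) in germ-like nuclei beside an RNA ratio of 0.870 (1.40 after thinning to 2000 UMIs), and 1.25 (0.925 to 1.65) in Leydig-like nuclei beside 3.25. Of the 3 promoter peaks of *Cxcr4*, the one centred 1097 bases upstream, whose sequence is printed above, had the highest germ-like ratio. It was 3.36 (2.47 to 4.54) from 76 and 109 fragments. The other 2 peaks together had 71 and 270 fragments, a ratio of 1.27 (0.9604 to 1.65). Of them, the peak centred 34 bases upstream was at 1.40 (1.02 to 1.91) and the one 1244 bases past the start at 0.963 (0.536 to 1.63). In Leydig-like nuclei the peak centred 34 bases upstream was at 1.77 (1.19 to 2.56). The one centred 1097 bases upstream was at 0.546 (0.246 to 1.06) there, and the one past the start at 1.42 (0.709 to 2.61). *Gfra1*, with 119 promoter fragments in all, had 0.915 (0.529 to 1.50) in germ-like nuclei.

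No deposited peak lay within 1 kb of the start of *Gdnf*. Fragments with a cut within 500 bases of that start had a ratio of 0.775 (0.457 to 1.24) in Sertoli-like nuclei and of 1.63 (1.18 to 2.24) in germ-like nuclei, which hold little *Gdnf* RNA. The share of genes at least 2-fold higher in promoter fragments, among 19252, was 10.9% for germ-like, 3.57% for Sertoli-like, 2.08% for Leydig-like and 1.64% for progenitor-like nuclei. Of the 7 genes *Ret* in germ-like nuclei passed that fold, and none did in the other 3 classes. Between the *Lhx1*-led and *St18*-led germ-like clusters the promoter ratio was 0.704 (0.462 to 1.08) for *Kit* and 0.865 (0.535 to 1.41) for *Ret*, and both intervals included 1.

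**Figure D3:**
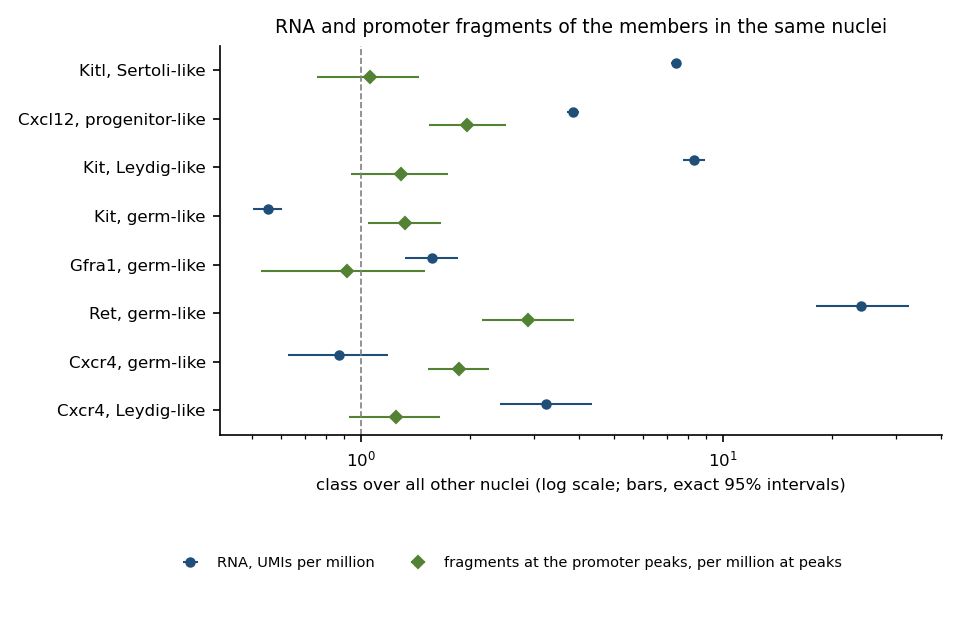
Ratio of a class over all other nuclei (x axis, log scale; dashed line, equal levels) for RNA in CPM (circles) and for fragments at promoter peaks in FPM (diamonds), with exact 95% intervals; *Gdnf* has no promoter peak and is not shown. Both ratios exceed 1 for *Ret* in germ-like (24.1 and 2.90) and *Cxcl12* in progenitor-like nuclei (3.85 and 1.96), while *Kitl* in Sertoli-like nuclei differs in RNA (7.44) with a promoter ratio of 1.06.

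Peaks in each gene and within 50 kb of it, promoter peaks included, were compared where they had at least 50 fragments. Of all 68222 such peaks, 7.26% were at least 2-fold higher in Leydig-like, 10.5% in Sertoli-like, 13.7% in progenitor-like and 8.21% in germ-like nuclei. At *Kit*, 2 of 7 such peaks were at least 2-fold higher in Leydig-like nuclei, against the 7.26%. The intronic peak 5119 bases past the start, whose centre is printed above, had 26 fragments in Leydig-like nuclei and 29 in all others, which is 21.2 against 2.21 FPM, a ratio of 9.57 (5.42 to 16.8). The intergenic peak 15323 bases upstream, with its centre also printed above, had 18 and 36 fragments, a ratio of 5.34 (2.85 to 9.65). In germ-like nuclei 2 of the 7 peaks had intervals above 1 and 3 below. The same intronic peak had 3 fragments and a ratio of 0.278 (0.0555 to 0.858). The highest ratio of germ-like nuclei at *Kit* was 1.83 (1.06 to 3.03), at another intronic peak 21626 bases past the start.

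At *Gdnf*, 3 of 6 peaks passed 2-fold in Sertoli-like nuclei, against 10.5% of all peaks. The intergenic peak 27776 bases past the start, beyond the end of the gene and printed above, had 33 fragments in Sertoli-like and 30 in all other nuclei, a ratio of 8.71 (5.15 to 14.8). A peak 11910 bases upstream had a ratio of 2.78 (1.36 to 5.35) and an intronic peak 14897 bases past the start had 2.53 (1.35 to 4.52). The 3 peaks nearer the start, at 2234 to 4731 bases, had ratios of 0.675 to 1.12 with intervals that included 1.

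At *Cxcl12*, 3 of 12 peaks passed 2-fold in progenitor-like nuclei, against 13.7% of all peaks, and all 3 were intergenic and upstream. The peak 49993 bases upstream, printed above, had 199 fragments in progenitor-like and 72 in other nuclei, a ratio of 3.23 (2.45 to 4.29). By class it held 30.1 FPM in progenitor-like, 15.5 in Leydig-like, 12.8 in mesonephric mesenchyme-like and 6.50 in germ-like nuclei. Peaks 30658 and 38994 bases upstream had ratios of 2.94 and 2.70. At *Cxcr4*, 2 of 6 peaks passed 2-fold in germ-like nuclei, against 8.21% of all peaks. They were the promoter peak centred 1097 bases upstream, given above, and one 10245 bases upstream at 3.17 (1.91 to 5.19). In Leydig-like nuclei no *Cxcr4* peak passed 2-fold.

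*Kitl* had no such peak among the 5 of 14 peaks in its window that had at least 50 fragments. The highest of 5 in Sertoli-like nuclei was 1.70 (1.01 to 2.74), 115882 bases past the start and inside the gene *Gm35533*. At *Gfra1*, 3 of 10 peaks had at least 50 fragments. None of the 3 was higher in germ-like nuclei beyond counting error, and an intronic peak 41966 bases past the start was lower (0.401, 0.168 to 0.823). At *Ret* the promoter peak was 1 of 4 and the other 3 had intervals that included 1. These distances place peaks near a gene and do not assign them to it.

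**Figure D4:**
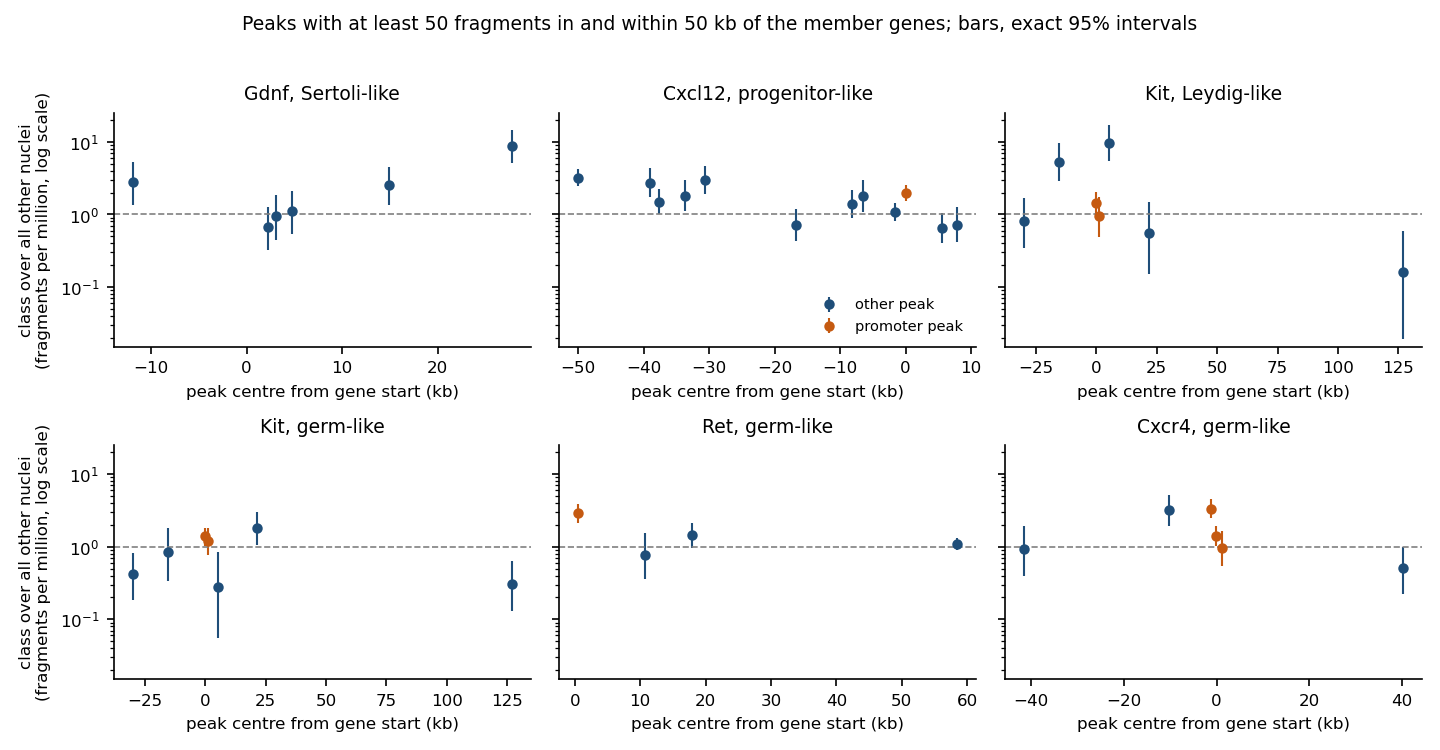
Ratio of FPM in a class over all other nuclei (y axes, log scale; dashed line, equal levels) for each peak with at least 50 fragments, against the distance of its centre from the gene start in kb (x axes, positive in the direction of transcription); orange points are promoter peaks, blue points other peaks, bars exact 95% intervals. The highest points are the *Kit* intronic peak in Leydig-like nuclei (9.57) and the *Gdnf* downstream peak in Sertoli-like nuclei (8.71), while promoter peaks of *Kit* lie at 0.963 to 1.46.

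The 300 bases around RefSeq starts (250 before to 50 after, GRCm38.p6) were matched for 6 of the 7 genes. GGGCGG (the GC box, both strands, in 35.7% of 32851 promoters) was found 5 times for *Cxcl12* and 3 times each for *Kitl* and *Cxcr4*. It was found 1 time at each of the 2 *Kit* starts. TATAAA (13.6%) was found in the *Kitl* and *Cxcr4* windows and at 1 of the 2 *Gdnf* starts. CAAGGTCA was found in none of them, against 1.56% of all promoters. The *Gfra1* window held none of the 3 motifs.

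Other genes of these pathways were read from lists, in all kept nuclei and with folds over all other nuclei. Their counts at 2-fold stand beside 20.2% of all genes in germ-like and 8.54% in Sertoli-like nuclei. Of the GDNF family ligands and co-receptors, 7 of 10 had at least 20 UMIs, and 1 was at least 2-fold higher in germ-like and 1 in Sertoli-like nuclei. Named after their values were seen, these were the co-receptor gene *Gfra4* (2.60 CPM, 3.26-fold) and *Gdf15* (4.86 CPM, 15.4-fold), a stress-induced ligand that signals through RET. *Ncam1*, an alternative GDNF receptor, was 2505 CPM in the *Pax8*-led cluster (5.14-fold all other nuclei), the cluster with the most *Gfra1*. *Nrtn*, the neurturin gene, was 7.05 CPM in Leydig-like nuclei (3.49-fold), and its co-receptor gene *Gfra2* 23.8 CPM in progenitor-like nuclei (2.61-fold). *Sdc3*, a heparan sulphate proteoglycan that binds GDNF, was 27.2 CPM in immune-like nuclei (2.76-fold) on 13 UMIs. The median log2 ratio of the list was -0.79 in germ-like and -1.28 in Sertoli-like nuclei, beside 0.05 and -0.16 over all genes tested.

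Among the 8 GDNF-responsive genes, 3 were at least 2-fold higher in germ-like than in all other nuclei and 4 in Sertoli-like nuclei, against 20.2% and 8.54% of all genes. *Etv4* (4.15-fold and 2.06-fold) and *Etv5* (2.72-fold and 2.64-fold), named after their values were seen, were in both groups. *Lhx1* was 47.4 CPM in germ-like and 1.21 CPM in all other nuclei (39.3-fold, 30.7 to 51.0). *Bcl6b* was highest in endothelial-like nuclei (32.0 CPM, 58.1-fold), *Id4* in surface epithelium-like nuclei (30.5 CPM, 6.73-fold), *Dusp6* in immune-like nuclei (29.3 CPM, 5.86-fold, 14 UMIs) and *Spry4* in pericyte-like nuclei (23.3 CPM, 4.80-fold, 16 UMIs). The list was therefore not led by 1 class. Its median log2 ratio was 0.00 in germ-like and 0.24 in Sertoli-like nuclei.

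Of 14 KIT signalling genes, 2 were at least 2-fold higher in germ-like nuclei and 1 in Sertoli-like nuclei, shares near or under those of all genes (20.2% and 8.54%). The Src family kinase gene *Lyn* was 846 CPM in immune-like nuclei (33.9-fold), where the adaptor genes *Sh2b3* (27.2 CPM) and *Grb2* (320 CPM) were also highest. *Socs1*, a feedback inhibitor of cytokine receptors, was highest in Leydig-like nuclei, the class with most *Kit*, at 3.58 CPM (2.82-fold, 1.82 to 4.28), and *Pik3r1*, a subunit of PI3 kinase, was 358 CPM in mesonephric mesenchyme-like nuclei (2.71-fold). Named after their values were seen, the 2 germ-like genes were *Adam17*, a protease that can shed KIT and its ligand (151 CPM, 2.10-fold), and the matrix protease gene *Mmp9* (1.77 CPM, 9.06-fold), and the Sertoli-like one was the kinase gene *Fyn* (712 CPM, 2.27-fold). The list's median log2 ratio was -0.21 in germ-like and -0.23 in Sertoli-like nuclei.

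Of 7 genes of the CXCL12 axis, *Arrb2* was at least 2-fold higher in germ-like nuclei (9.09 CPM, 2.11-fold) and none was in Sertoli-like nuclei. *Ackr3*, the receptor that scavenges CXCL12, was 33.5 CPM in mesonephric mesenchyme-like nuclei (3.48-fold, 2.79 to 4.29). *Dpp4*, a protease that inactivates CXCL12, was 139 CPM in surface epithelium-like nuclei (29.7-fold, 26.1 to 33.9). The arrestin genes *Arrb2* and *Arrb1* were highest in immune-like (54.4 CPM, 10.3-fold) and erythroid-like nuclei (123 CPM, 6.16-fold), and *Gnai2*, a G protein subunit used by chemokine receptors, in immune-like nuclei (165 CPM, 3.32-fold). The median log2 ratio was -0.22 in germ-like and -0.45 in Sertoli-like nuclei.

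Of 9 other niche factors, 7 had at least 20 UMIs, and 1 was at least 2-fold higher in germ-like and 1 in Sertoli-like nuclei. The first, named after its values were seen, was *Nodal*, a TGF-beta family ligand of fetal germ cells (2.70 CPM, 16.9-fold), and the second *Cyp26b1* (2.16-fold). *Fgf9*, which supports the testis fate, was 153 CPM (130 to 178) in the *Pax8*-led cluster (8.90-fold) and 147 CPM (137 to 158) in surface epithelium-like nuclei, with overlapping intervals, and 29.8 CPM in Sertoli-like nuclei. *Cyp26b1*, which degrades retinoic acid and keeps fetal male germ cells out of meiosis, was 127 CPM in Leydig-like (5.36-fold) and 66.9 CPM in Sertoli-like nuclei. *Nrg1*, a ligand of ERBB receptors, was 1670 CPM in progenitor-like nuclei (4.79-fold), *Fgf2* 93.1 CPM in surface epithelium-like nuclei (3.18-fold) and *Igf1* 322 CPM in immune-like nuclei (3.06-fold). The median log2 ratio was -1.67 in germ-like and -1.16 in Sertoli-like nuclei.

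The genes whose levels over the 9 named classes of at least 50 nuclei were most like each of the 7 were ranked by Pearson's r of log2(CPM + 1) among 12102 genes with at least 200 UMIs, as a description. The classes come from 1 library, differ in depth and share its free RNA. They were *Npr1* (r = 0.962), *Gldn* and *Lrrc58* for *Kitl*, *Vdac3* (0.961), *Mapre1* and *Mov10* for *Gdnf*, and *Gli1* (0.9697), *Tshz2* and *Adcy2* for *Cxcl12*. For the receptors they were *Nagk* (0.957), *Cd36* and *Ppp1r14c* for *Kit*, *Chtop* (0.939) and *Wwp1* for *Gfra1*, *Tmc2* (0.990), *Usp9y* and *Cyct* for *Ret*, and *Fam219a* (0.953), *Taok2* and *Cggbp1* for *Cxcr4*. *Npr1*, *Gldn* and *Lrrc58* were highest in Sertoli-like nuclei like *Kitl*, at 130, 71.8 and 500 CPM. *Cd36*, *Chtop* and *Wwp1* were highest in immune-like nuclei, where the *Kit* and *Gfra1* values rested on the few nuclei given above. The *Pax8*-led cluster, where *Gfra1* was highest, was not among the 9 classes.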

How the data were processed

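RNA and open chromatin of the same nuclei were deposited as 1 library each. The authors made the files with Cell Ranger ARC 2.0.1 on mm10 (GRCm38), and deposited raw counts of UMIs (by gene) and of transposase cuts (by peak), beside a list of unique fragments. Nuclei were kept as in the study's methods, with more than 500 genes, 250 to 25000 fragments at peaks that made up more than 20% of all their fragments, and less than 10% of UMIs from mitochondrial genes, 10% from ribosomal protein genes and 0.5% from haemoglobin genes. Blacklisted regions were not filtered. Scrublet in scanpy 1.11.5 ranked doublets, and the top 0.8% per 1000 nuclei (6.13%) were removed, while its automatic threshold, which marks 18.2%, was an alternative. Leaving out the nuclei over it with the classes kept was a check chosen after seeing the data. No free RNA was removed. Kept nuclei had 706 to 705765 UMIs.

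Seurat 5.3.0 (R 4.3.3) clustered the nuclei from 2000 variable genes and all peaks (30 components each, irlba 2.3.5.1) by weighted nearest neighbours at resolution 0.3, and at 0.6 for finer clusters. RNA of 55 genes (the 7 genes and the pathway lists) and 115 peaks near the 7 genes were held out. Each cluster took the name of its highest-scoring marker list, or none where its leading genes spoke for another. UMIs or fragments were summed per class, with exact Poisson intervals for levels, Clopper-Pearson intervals for shares and conditional binomial intervals for ratios, at 95%, computed with scipy 1.17.1 in Python 3.11.15. For a count of 0 the upper limit of the exact interval is given. UMIs and fragments within a nucleus are not independent, so intervals cover counting error only. Fragments, not cuts, were counted at peaks since cuts come in pairs. Ratios across all features were required to have at least 20 counts (50 fragments for single peaks). The intervals of RNA ratios were run on simulated independent counts. These lack the dependence of UMIs within a nucleus, so the run checks the computation only. Annotation of peaks was taken from GENCODE M21 and promoter windows from RefSeq (GRCm38.p6).

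A list gene was named with values where its highest class was at least 2-fold over all other nuclei and it had at least 100 UMIs, at most 5 a list, by ratio. Beyond that rule, the genes behind counts of 5 or fewer and those compared between the germ-like clusters were named after their values were seen. Of the genes ranked by likeness of pattern, 1 is not reported here. The 7 genes, the lists, the markers and this rule were chosen with earlier results of these data known. The number of embryos behind the libraries was not stated in the labels or methods read. Alternatives were clusters from RNA or chromatin alone, resolution 0.6, no doublet removal, the automatic threshold, stricter minimums, thinning to 2000 UMIs, the mean CPM of single nuclei and a window of 500 bases around gene starts.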

Additional observations from a re-analysis of the deposited data

How the results depend on the processing

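Over 109 recomputations of 16 ratios, 68 moved by less than their counting interval and 41 by more. None of the ratios whose interval left out 1 crossed it, though the *Kit* promoter interval in germ-like nuclei included 1 without nuclei over the automatic threshold and that in Leydig-like nuclei left it out with cut counts and around the start, and of the others *Cxcr4* RNA in germ-like nuclei crossed it under 3 alternatives and the *Gfra1* promoter (0.915, or 1.03 around the start) under 1. With clusters from chromatin alone the RNA ratios over all other nuclei were 6.23 for *Kitl* and 7.19 for *Gdnf* in Sertoli-like, 14.4 for *Ret* in germ-like and 7.60 for *Kit* in Leydig-like nuclei. With clusters from RNA alone they were 4.14 for *Cxcl12* in progenitor-like and 1.96 for *Gfra1* in germ-like nuclei, and at resolution 0.6 they were 3.61 for *Cxcl12* and 7.76 for *Kit* in Leydig-like nuclei. Without doublet removal they were 6.63 for *Kitl*, 7.84 for *Gdnf*, 3.64 for *Cxcl12*, 0.628 for *Kit* in germ-like and 6.68 in Leydig-like nuclei. Clustered again under the automatic Scrublet threshold they were 11.6 for *Kitl*, 13.05 for *Gdnf*, 4.58 for *Cxcl12*, 42.4 for *Ret* and 11.3 for *Kit* in Leydig-like nuclei. With the classes kept and those nuclei left out, an alternative chosen after seeing the data, they were 11.6, 13.03, 5.64, 42.4 and 12.5, and the *Cxcl12* promoter ratio was 2.61. Under either of these *Cxcr4* in germ-like nuclei was 1.08. With the stricter minimums they were 6.99 for *Kitl*, 0.623 for *Kit* in germ-like and 7.23 in Leydig-like nuclei, and 1.32 for *Gfra1*. Thinned to 2000 UMIs they were 9.18 for *Kitl*, 10.3 for *Gdnf*, 4.24 for *Cxcl12*, 0.607 and 11.7 for *Kit*, 1.89 for *Gfra1* and 1.40 for *Cxcr4* in germ-like nuclei, the last on the other side of 1 from the reported 0.870. As means of single nuclei they were 9.43 for *Kitl*, 10.8 for *Gdnf*, 4.21 for *Cxcl12*, 1.97 for *Gfra1* and 10.8 for *Kit* in Leydig-like nuclei. Around the start, the *Cxcr4* promoter ratio in germ-like nuclei was 1.43. The causes were not tested. *Gdnf* has no promoter peak, so its promoter ratio was not run. No paired analysis was possible because each assay has 1 library, and no replicate could be left out. Depth limits *Cxcr4*, with 230 UMIs, and *Gfra1*, with 119 promoter fragments, most.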
